A study of Mus musculus with 4 samples.

Results

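The collagen chain genes were taken as all genes whose symbol is Col, a number, the letter a and a second number, as in Col1a1. There were 44 such genes among the 55401 genes measured in mouse tibial bone marrow. They were sorted by the tissue in which the chain is best known into 8 fibrillar, 8 basement membrane, 7 cartilage and 21 other chains. A mean FPKM of 0.1 or more was required for testing, and 25 of the 44 genes met it, as did 18596 genes in all. FPKM is the number of sequenced fragments scaled to transcript length and library size, so levels can be compared between genes.

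The libraries came from wild-type male C57/B6 mice that were made obese with a high-fat diet (HFD), starting at the age of 8 weeks. The HFD group, 2 libraries, had the diet alone. The HFD and Exercise group, also 2 libraries, had the same diet and moderate-intensity treadmill running for 12 weeks. The comparison asks how running changed the marrow of obese mice, and both groups carry the diet, so no lean mice stand behind any value. The labels give the tissue as bone marrow, yet the entry for cell line is mesenchymal stem cells and that for cell type is fibroblast. Genes of blood cells were the most abundant by far, with S100a8, a neutrophil protein, between 12006 and 35688 scaled FPKM, while no collagen chain gene exceeded 7.28 scaled FPKM. Of the fibroblast and periosteum genes, Pi16 (29.7 to 42.9 scaled FPKM), Dcn (3.42 to 6.35), Postn, Lum, Aspn and Dpt were above 0 in all 4 libraries, and Mfap5, Clec3b and Thbs4 were not. The values were therefore described as those of whole marrow, where fewer cells of a type and less RNA per cell cannot be told apart.

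Collagens are secreted proteins in which a trio of chains winds into a helix. Each chain carries long runs of the repeat glycine-X-Y, because only glycine is small enough to sit inside the helix. Fibrillar collagens have an almost unbroken helix and pack into the fibrils that give bone, tendon and skin their strength, with type I the main protein of bone. Type IV collagen has a broken helix and forms the sheet-like networks of basement membranes, and type VI forms beaded microfilaments around cells. In bone marrow, collagen chains are made mainly by stromal cells, osteoblasts and cells of the vessel wall, while the blood cells bind collagen through receptors.

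The repeat can be read in the reference transcripts. The first 30 codons of the longest glycine-X-Y run of 6 chains, which represent each class discussed here, are shown. Capitals mark the GG that opens each glycine-X-Y triplet. The stretches are coding exon sequence from GENCODE vM21 transcripts on GRCm38, written 5′ to 3′ on the strand of the gene.
Col1a1: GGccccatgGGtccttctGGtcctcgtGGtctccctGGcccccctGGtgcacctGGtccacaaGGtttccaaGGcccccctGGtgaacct
Col1a2: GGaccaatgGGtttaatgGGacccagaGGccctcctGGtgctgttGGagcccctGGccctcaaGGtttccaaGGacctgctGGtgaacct
Col2a1: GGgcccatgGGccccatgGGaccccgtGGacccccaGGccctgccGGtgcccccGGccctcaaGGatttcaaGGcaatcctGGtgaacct
Col5a1: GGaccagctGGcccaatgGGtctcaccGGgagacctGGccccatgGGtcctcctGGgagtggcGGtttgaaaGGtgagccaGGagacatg
Col4a1: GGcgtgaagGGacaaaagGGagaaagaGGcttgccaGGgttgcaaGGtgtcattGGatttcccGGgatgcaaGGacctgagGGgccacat
Col6a1: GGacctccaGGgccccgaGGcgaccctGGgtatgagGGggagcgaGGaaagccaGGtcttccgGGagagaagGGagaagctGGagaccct
The stretches of Col1a1, Col1a2 and Col2a1 share the same closing letters, GGtgaacct. Over the tested genes, the longest run was 337 to 344 triplets in 8 fibril-forming chains and 217 triplets in Col27a1. It was 40 triplets in Col4a1 and 66 in Col4a2, whose helix is interrupted many times, with 22 and 24 separate runs of at least 5 triplets. It was 87 triplets in both Col6a1 and Col6a2, which make the short helix of type VI collagen, and 45 in Col6a3.

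Read equivalents, that is, coverage times length over the read length of 150 bases, summed to between 44310500 and 53038200 in each library. The 44 collagen genes together held 7611 to 11035 of them. The HFD libraries listed 23309 and 20663 genes above 0, and the HFD and Exercise libraries 17752 and 19291. With 2 libraries against 2, the smallest two-sided p that an exact permutation test allows is 0.333, so limma was fitted over all 18596 genes instead. A gene was called at an unadjusted p under 0.05 and an absolute log2 fold change above 1, the thresholds of the study. Over all genes, 3.71% were called, and none had an adjusted p under 0.05 in limma (smallest 0.768), against 933 genes, or 5.02%, with an unadjusted p under 0.05.

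Of the 25 tested collagen genes, 1 was called, Col1a1, which fell after exercise, beside the 3.71% of all genes tested that were called. The lowest adjusted p in the family was 0.96 (limma with Benjamini-Hochberg adjustment). By the sign of the log2 fold change, which defines lower and higher in all counts that follow, 13 genes were lower after exercise and 12 higher, and the median log2 fold change was -0.06, against -0.02 over all genes tested. Quantile normalization turned the median of the family to 0.27. The sign can differ from that of the group means where libraries of a group are far apart, which among the collagen genes held for Col5a2. The groups of libraries did not overlap for 13 of the 25 genes, 6 of them lower and 7 higher. Such a separation was found in 32.7% of all genes tested.

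The plot of all tested members shows that most collagen genes had low FPKM. Low FPKM did not always mean few reads, since many of these transcripts are long. Col7a1, at 0.241 to 0.766 scaled FPKM, had 136 to 382 read equivalents in a library, while Col16a1 had 0 to 94.2. Only 6 genes had a mean scaled FPKM of at least 1, and 11 had at least 0.5. Col1a2 was the most abundant, and ranked 7500 among all genes tested.

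**Figure D1:**
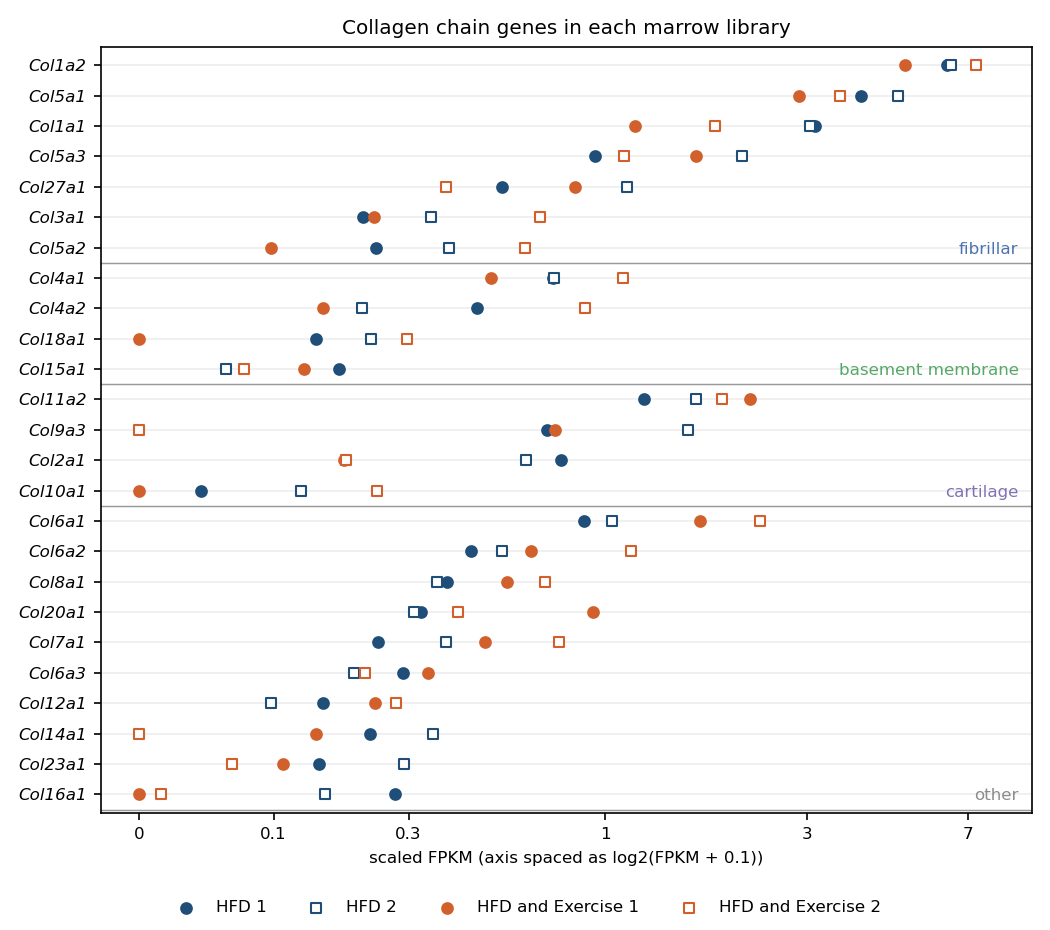
Scaled FPKM of the 25 tested collagen chain genes in each of the 4 libraries, with 1 row a gene, sorted by class and mean level. The x axis is spaced as log2(FPKM + 0.1). Col1a2 reached 7.28 scaled FPKM at the right edge, and Col9a3, Col10a1, Col14a1, Col16a1 and Col18a1 touch 0 in 1 HFD and Exercise library each.

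Type I collagen, the main fibril of bone, is made of a pair of chains from Col1a1 and a chain from Col1a2. Col1a1 (ENSMUSG00000001506.10, chr11:94936224-94953042, plus strand, GRCm38) had 3.13 and 3.05 scaled FPKM in the HFD libraries and 1.18 and 1.84 in the HFD and Exercise libraries. Both exercise libraries lay below both HFD libraries. The mean went from 3.09 ± 0.0584 to 1.51 ± 0.464 (SD, n = 2 in each group), a log2 fold change of -1.02 with a standard error of 0.393. These values rest on 1265, 1200, 408 and 600 read equivalents. The unadjusted p from limma was 0.0426 and the Benjamini-Hochberg adjusted p 0.96.

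Col1a2 (ENSMUSG00000029661.16, chr6:4504814-4541544, plus strand) had 6.27 and 6.41 scaled FPKM in HFD and 5.02 and 7.28 in HFD and Exercise. The HFD libraries were nearly equal, and the exercise libraries lay on either side of them. The log2 fold change was -0.07 with a standard error of 0.298. The quotient of Col1a1 over Col1a2 was chosen after these values were seen and is a description. It was 0.50 and 0.476 in HFD and 0.235 and 0.252 in HFD and Exercise, so that 0.488 ± 0.0167 became 0.244 ± 0.0121 (SD, n = 2), a log2 difference of -1.0. The spread of the quotient within each group was small beside that difference, although the level of both chains differed between the exercise libraries. In every library, over 98% of each gene's FPKM lay in its leading transcript, so the quotient does not turn on the choice of transcript (-1.01 with that transcript alone).

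The call of Col1a1 was lost without HFD 1 (log2 fold change -1.01), without HFD 2 (-1.05), without HFD and Exercise 1 (-0.72) and with the replicate number as a block (adjusted p = 1 in limma). Over 15 alternatives Col1a1 was called in 7, its log2 fold change ran from -1.33 to -0.72 and its adjusted p from 0.37 to 1.

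**Figure D2:**
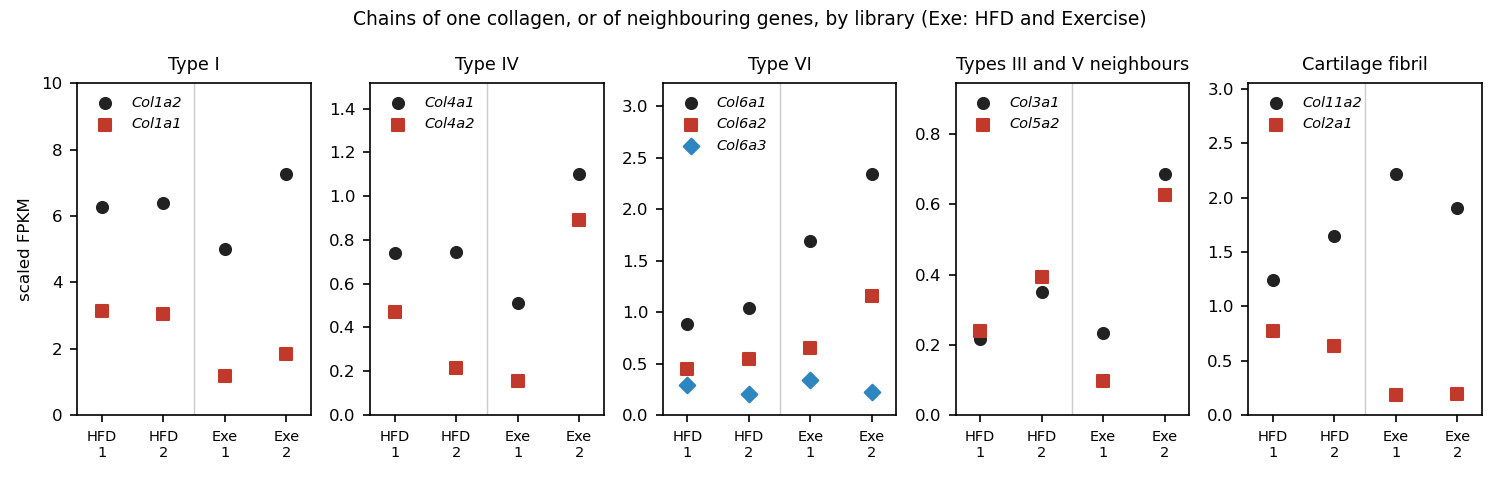
Scaled FPKM of chains that share a trimer or neighbour each other on the chromosome, by library, with a y axis of its own in each panel (Exe, HFD and Exercise). Col1a1 is lower in both exercise libraries, at 1.18 and 1.84, while Col1a2 is at 5.02 and 7.28, on either side of the HFD values.

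Type V collagen is a minor partner inside type I fibrils and limits their thickness. Its main chain Col5a1 (ENSMUSG00000026837.16, chr2:27886425-28039514, plus strand) was the second most abundant collagen gene here. It had 3.99 and 4.85 scaled FPKM in HFD and 2.88 and 3.57 in HFD and Exercise. The groups did not overlap, but the log2 fold change of -0.44 with a standard error of 0.317 was not called. Its partner Col5a2 had 0.239 and 0.392 in HFD and 0.0971 and 0.628 in HFD and Exercise, where the exercise libraries held both the lowest and the highest value. Col5a3, a chain of some type V trimers, had 0.942 and 2.12 against 1.65 and 1.11 scaled FPKM, again with overlap.

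Of the remaining fibrillar chains, Col3a1, the chain of the thin reticular fibrils of marrow, was scarce. It had 0.216 and 0.350 scaled FPKM in HFD and 0.234 and 0.687 in HFD and Exercise, far under type I. Col27a1, a fibrillar chain of cartilage, had 0.546 and 1.13 against 0.843 and 0.386. Col24a1 was listed above 0 in HFD 1 alone, at 0.0214. In the class as a whole, 6 of the 7 tested genes were lower after exercise and 1 was higher, Col3a1, with a median log2 fold change of -0.11. By group means of scaled FPKM, 5 were lower and 2 higher, since Col5a2 went from 0.315 to 0.362, and quantile normalization also gave 5 lower and 2 higher. Only Col1a1 and Col5a1 had groups that did not overlap, and for both the exercise libraries were lower, a pattern found in 18.7% of all genes tested.

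Col3a1 and Col5a2 lie tail to tail on chromosome 1, with Col5a2 (chr1:45374321-45503282, minus strand) 24614 bases from the end of Col3a1 (chr1:45311538-45349706, plus strand). Both were highest in HFD and Exercise 2, at 0.687 and 0.628 scaled FPKM. Their quotient, Col5a2 over Col3a1, was 1.11 and 1.12 in HFD and 0.414 and 0.914 in HFD and Exercise. The exercise libraries were thus lower but far from each other.

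The basement membrane genes Col4a1 and Col4a2 encode the chains of the common type IV network, found under the endothelium of sinusoids and arterioles. They lie head to head on chromosome 8, with start sites so near that the annotated genes overlap at their 5′ ends (Col4a1, chr8:11198423-11312826, minus strand; Col4a2, chr8:11312805-11449287, plus strand). Col4a1 had 0.740 and 0.746 scaled FPKM in HFD and 0.512 and 1.10 in HFD and Exercise. Col4a2 had 0.469 and 0.215 in HFD and 0.157 and 0.892 in HFD and Exercise. For both genes HFD and Exercise 1 held the lowest value and HFD and Exercise 2 the highest, so the exercise group spanned the HFD group. The log2 fold changes were 0.03 (standard error 0.570) and 0.25 (0.874), and without 1 of the exercise libraries they took opposite signs. Without HFD and Exercise 1 they were 0.51 and 1.23, and without HFD and Exercise 2 they were -0.47 and -0.73.

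The other network chains were close to 0. Col4a3, Col4a4 and Col4a5, which form the type IV network of kidney and lung, stayed at or under 0.251 scaled FPKM, the value of Col4a3 in HFD and Exercise 1. Col4a6 was between 0.0348 and 0.159. The multiplexins Col15a1 and Col18a1, which sit at the outer face of basement membranes and carry the endostatin domains, had 0.0567 to 0.181 and 0 to 0.297 scaled FPKM. Col18a1 was listed at 0 in HFD and Exercise 1 and at its highest, 0.297, in HFD and Exercise 2. It overlaps Slc19a1 on the other strand, a gene with a mean FPKM of 3.28. The library kit does not mark strand, so reads can be assigned to either. None of the 4 tested genes of this class had groups that did not overlap.

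Endothelial cells are a main source of these chains. Of 9 endothelial marker genes, all 9 were tested and all 9 had a negative log2 fold change, with a median of -0.38, and none was called. By group means 7 were lower, and Stab2 and Egfl7 were higher. Cdh5, Pecam1, Kdr, Emcn and Tek were lower in both exercise libraries. These were 5 separated lower and 0 higher, beside 18.7% and 14% of all genes tested. The summed scaled FPKM of the 9 markers was 32.2 and 31.0 in HFD and 32.8 and 19.8 in HFD and Exercise. It was lowest in the library where Col4a1 and Col4a2 were highest. Egfl7 made up 8.70 and 10.1 of the sums in HFD and 13.5 and 5.69 in HFD and Exercise. The part of endothelial cells in the values of the type IV chains was not tested.

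The cartilage genes did not move as a group. Col2a1 (ENSMUSG00000022483.17, chr15:97975602-98004695, minus strand) encodes the main fibrillar collagen of cartilage. It had 0.775 and 0.633 scaled FPKM in HFD and 0.188 and 0.190 in HFD and Exercise, from 241, 201, 56 and 53.5 read equivalents. The exercise libraries were alike and lay far below the HFD libraries. The log2 fold change of -1.47 with a standard error of 0.604 was not called, with an unadjusted p of 0.0528 from limma and a Benjamini-Hochberg adjusted p of 0.96. It was called without HFD 2 (-1.60), without HFD and Exercise 2 (-1.49) and in 3 other settings.

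Col11a2 (ENSMUSG00000024330.17, chr17:34039437-34066685, plus strand), a chain of the type XI collagen that lies within cartilage fibrils, had 1.24 and 1.65 scaled FPKM in HFD and 2.21 and 1.90 in HFD and Exercise. It stood opposite to Col2a1, with both exercise libraries above both HFD libraries and a log2 fold change of 0.49 (standard error 0.399). The quotient of Col11a2 over Col2a1 was 1.60 and 2.60 in HFD and 11.8 and 9.99 in HFD and Exercise, again chosen after the values were seen. The third chain of type XI, Col11a1, was at most 0.0589 scaled FPKM. The reads of Col11a2 were divided among transcripts in ways that differed between libraries, and its leading transcript held 0 and 49.3% of the gene in HFD and 100% and 60.8% in HFD and Exercise.

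Type IX collagen sits on the surface of cartilage fibrils and is built from Col9a1, Col9a2 and Col9a3. Col9a3 had 0.715 and 1.59 scaled FPKM in HFD, 0.748 in HFD and Exercise 1 and was listed at 0 in HFD and Exercise 2. The groups overlapped, and the log2 fold change of -2.01 had a standard error of 1.11. It was -3.55 without HFD and Exercise 1 and -0.47 without HFD and Exercise 2. Its coding transcript held 64.1% of its FPKM. Its partners Col9a1 and Col9a2 stayed at or under 0.114 in each library. Col10a1, the collagen of hypertrophic chondrocytes, ranged from 0 to 0.240. It overlaps Nt5dc1 on the other strand, a gene with a mean FPKM of 8.32. The library kit does not mark strand, so reads can be assigned to either.

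Chondrocyte genes were scarce in these libraries. Of 10 marker genes 4 were tested, and their summed scaled FPKM was 1.57 and 1.11 in HFD and 0.927 and 0.452 in HFD and Exercise. Comp, a matrix protein also found in tendon, had 0.234 to 0.737 and the signal Ihh 0.113 to 0.249, both above 0 in all 4 libraries and at levels like those of many tested collagen chains. Acan, the main proteoglycan of cartilage, was listed at 0 in 3 libraries and at 0.0624 in HFD and Exercise 2. Sox9, the transcription factor of the lineage, was at most 0.0428, and Matn3 and Ucma were listed at 0 in all 4 libraries. The summed level of these markers was lower in both exercise libraries, as was Col2a1. Snorc made up 0.713 of the sum in HFD 1 and was listed at 0 in every other library, and without it the sums overlapped. The part of these markers in the values of Col2a1 was not tested.

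The other chains held most of the genes with separated groups. Of the 10 tested, 9 had groups that did not overlap, 6 higher and 3 lower after exercise, beside 14% and 18.7% of all genes tested. The 3 lower genes reached the minimum for testing only through their HFD values. The median log2 fold change of the 10 tested genes was 0.64. None of these 10 was called in limma, and 0 had an unadjusted p under 0.05. With limma voom on the read equivalents, Col6a1 and Col16a1 were called.

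Type VI collagen is a trimer of the products of Col6a1, Col6a2 and Col6a3 and forms microfilaments next to cells. Col6a1 (ENSMUSG00000001119.7, chr10:76708792-76726168, minus strand) had 0.884 and 1.04 scaled FPKM in HFD and 1.69 and 2.34 in HFD and Exercise, from 247, 282, 404 and 528 read equivalents. Both exercise libraries were above both HFD libraries. The means were 0.960 ± 0.108 and 2.01 ± 0.458 (SD, n = 2), and the log2 fold change of 0.98 with a standard error of 0.430 was not called (adjusted p = 0.96 from limma). Its neighbour Col6a2 (chr10:76595762-76623630, minus strand) had 0.451 and 0.548 in HFD and 0.652 and 1.15 in HFD and Exercise, with a log2 fold change of 0.70 (standard error 0.560). The quotient of Col6a2 over Col6a1 was 0.511 and 0.528 in HFD and 0.387 and 0.494 in HFD and Exercise, lower in both exercise libraries. The neighbouring chains still placed the 4 libraries in the same order. Col6a3, on chromosome 1, had 0.289 and 0.202 in HFD and 0.341 and 0.221 in HFD and Exercise. It did not follow the other chains, and its groups overlapped. The longer type VI chains Col6a4, Col6a5 and Col6a6 were at or near 0, with 0.0113 as the highest value.

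Of the remaining genes with higher exercise libraries, Col8a1, a short-chain network collagen of vessel walls, had 0.387 and 0.363 scaled FPKM in HFD and 0.564 and 0.704 in HFD and Exercise. Its partner Col8a2 was at most 0.0623. Col7a1, the anchoring fibril of skin, had 0.241 and 0.385 against 0.493 and 0.766. Col12a1, which binds the surface of type I fibrils, had 0.158 and 0.0970 against 0.236 and 0.276. Col20a1 had 0.326 and 0.311 against 0.933 and 0.416, and it overlaps 9230112E08Rik on the same strand, a gene with a mean FPKM of 1.48, so that reads between them can be assigned to either. The log2 fold changes of these 4 genes lay between 0.62 and 0.82, with standard errors of 0.566 to 0.727.

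The 3 genes with lower exercise libraries were Col14a1, Col16a1 and Col23a1. Their means after exercise, 0.0743, 0.00593 and 0.0860 scaled FPKM, lay under the minimum of 0.1, so they were tested only because of their HFD values. Col14a1 and Col16a1 bind along fibrils and between fibrils and other matrix, and Col23a1 is a transmembrane collagen. Col14a1 had 0.228 and 0.353 scaled FPKM in HFD, 0.149 in HFD and Exercise 1 and was listed at 0 in HFD and Exercise 2 (log2 fold change -1.29, standard error 0.856). Col16a1 had 0.272 and 0.160 in HFD and was listed at 0 and at 0.0119 in HFD and Exercise, the latter from 3 read equivalents. Its log2 fold change of -1.56 depends on the 0.1 added to each value, being -0.27 with 1 added and -3.89 with 0.01. It was called without HFD 1 (-1.30), without HFD 2 (-1.81) and without HFD and Exercise 2 (-1.66). Col14a1 was called without HFD and Exercise 1 (-1.95). In these fits without HFD 1, HFD 2, HFD and Exercise 1 or HFD and Exercise 2, 4.65%, 4.01%, 6.8% and 10.3% of all genes were called. Col23a1 had 0.153 and 0.291 against 0.110 and 0.0619.

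**Figure D3:**
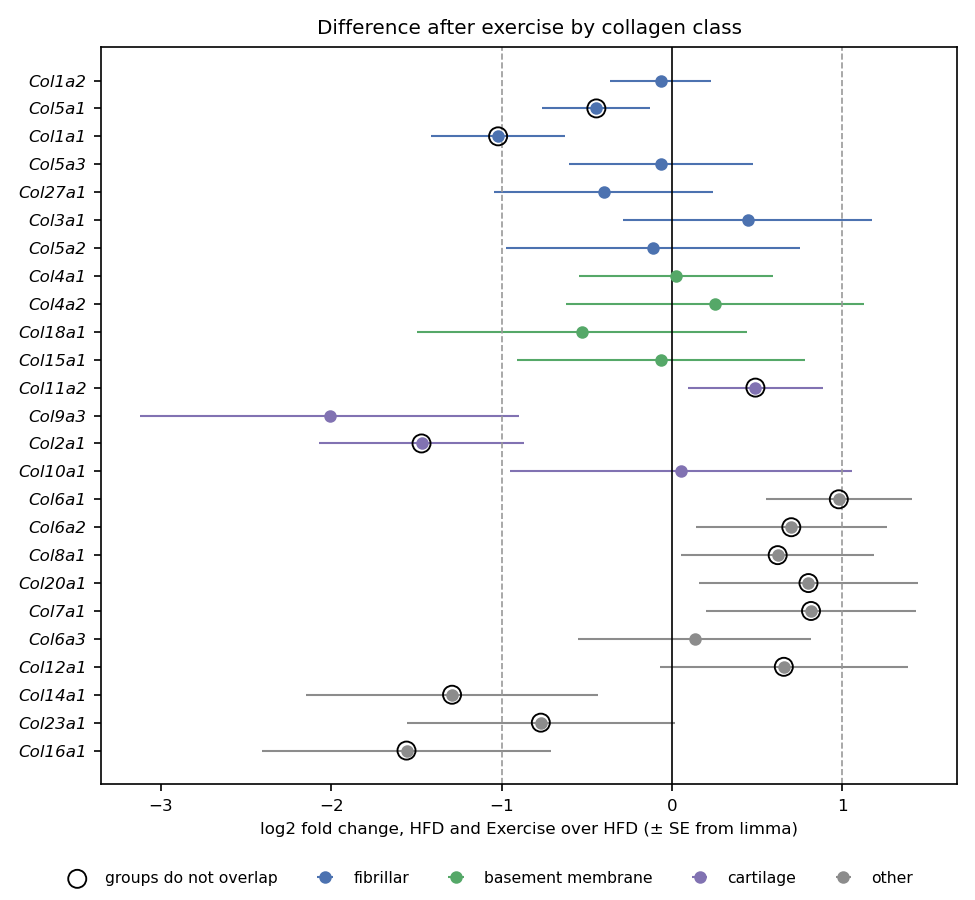
Log2 fold change of HFD and Exercise over HFD for the 25 tested collagen chain genes, coloured by class, with the standard error from limma as bars, circles around genes whose groups did not overlap, and dashed lines at -1 and 1. Circled genes of the other chains lie on both sides of 0, from -1.56 for Col16a1 to 0.98 for Col6a1.

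The 19 genes that were not tested had no value above 0.251 scaled FPKM. Just inside the minimum of 0.1 were Col10a1, Col15a1 and Col16a1, with mean FPKM of 0.10, 0.111 and 0.114, and just outside it were Col4a6 and Col4a3, with 0.0958 and 0.0939. Col13a1, Col19a1 and Col6a5 were listed at 0 in all 4 libraries. Collagen genes above 0 numbered 37 in each HFD library and 25 and 28 in the HFD and Exercise libraries. There were 10 collagen genes above 0 in an HFD library and in no exercise library, and 0 the other way round, which is 24.4% and 0% of the 41 above 0 in any library. Over the 25479 genes above 0 in any library, these shares were 18.4% and 3.64%. Of these 10, Col22a1, Col25a1, Col28a1, Col4a4 and Col6a4 were above 0 in both HFD libraries, each at no more than 0.192 scaled FPKM, which is 12.2% of the 41, beside 5.27% of all genes above 0. The number of all genes above 0 was also higher in the HFD libraries, and so was their depth, and the part of depth in these zeros was not tested.

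Summed over all 44 genes, collagen chains had 23.4 and 28.1 scaled FPKM in HFD and 21.5 and 26.4 in HFD and Exercise. The groups overlapped, and the log2 ratio of the means of -0.11 was smaller than the SD of 0.197 between replicates. The fibrillar sum was 15.4 and 18.3 in HFD and 11.9 and 15.5 in HFD and Exercise (log2 ratio -0.30, SD between replicates 0.229). The sum of the other chains was 3.54 and 4.22 in HFD and 5.17 and 6.01 in HFD and Exercise (log2 ratio 0.53, SD 0.168), with no overlap. Their share of all collagen FPKM was 15.1% and 15.0% in HFD and 24.0% and 22.8% in HFD and Exercise, and that of the fibrillar chains was 65.5% and 65.1% against 55.3% and 58.8%. Without Col6a1 the log2 ratio of the other chains was 0.29. The basement membrane sum (1.61 and 1.49 against 1.30 and 2.48) and the cartilage sum (2.94 and 4.11 against 3.15 and 2.39) overlapped between the groups. The log2 ratio of the basement membrane sum was 0.28 with all libraries and -0.27 without HFD and Exercise 2.

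**Figure D4:**
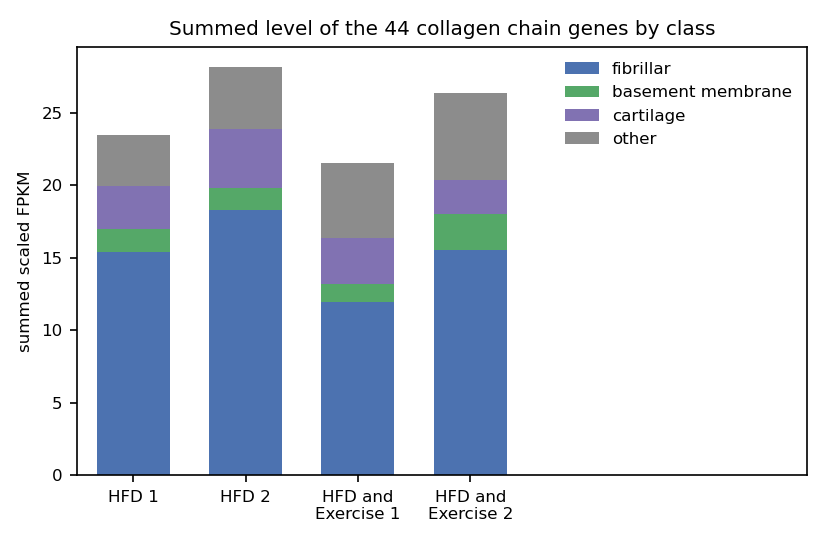
Summed scaled FPKM of the 44 collagen chain genes in each library, stacked by class. The fibrillar chains made up 55.3% to 65.5% of each bar, and the grey part for the other chains is taller in the exercise libraries, at 5.17 and 6.01 against 3.54 and 4.22.

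The genes that fold, modify and export collagen showed no called member. Of 19 genes for synthesis and secretion 17 were tested, with 8 lower and 9 higher after exercise and a median log2 fold change of 0.11. With limma voom they were 10 lower and 7 higher, with a median of -0.09. The general chaperones P4hb and Ppib, which act on many secreted proteins, were the most abundant, at 63.6 to 91.6 and 56.1 to 90.8 scaled FPKM. Serpinh1, the chaperone specific to collagen, had 2.14 and 2.02 in HFD and 2.77 and 3.32 in HFD and Exercise, with no overlap and a log2 fold change of 0.52. Plod2 and Fkbp10, which act together in the hydroxylation of telopeptide lysines for crosslinks, had log2 fold changes of -1.33 (standard error 0.698) and -1.20 (0.734) and were lower in both exercise libraries. Among 9 tested genes of 13 for propeptide removal and crosslinking, 6 were lower and 3 higher, with a median of -0.16 and none called. Lysyl oxidase, Lox, had 0.434 and 1.08 in HFD and 0.468 and 1.20 in HFD and Exercise.

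Receptors for collagen in blood cells and platelets included called genes. Of 14 receptor genes 13 were tested, 10 lower and 3 higher (median log2 fold change -0.17), and 2 were called, both lower, beside 2.73% of all genes tested called in that direction. Lair1, an inhibitory collagen receptor of immune cells, had 7.26 and 6.19 scaled FPKM in HFD and 3.01 and 3.25 in HFD and Exercise. Its log2 fold change was -1.08 with a standard error of 0.286. Itga2, the collagen-binding integrin subunit of platelets, had 1.39 and 1.40 in HFD and 0.631 and 0.452 in HFD and Exercise (log2 fold change -1.24). Gp6, the signaling receptor of platelets for collagen, was also lower in both exercise libraries, at 1.98 and 1.10 against 2.83 and 2.90, and was not called. Its signaling partner Fcer1g, which many myeloid cells use, had 239 to 317 with overlap. Of the other abundant genes of this list, Cd36 and Itgb1 overlapped between the groups. Adgrg1 had 19.0 and 15.2 in HFD and 10.5 and 10.6 in HFD and Exercise (log2 fold change -0.68) and was not called. Ddr2, the collagen receptor kinase of mesenchymal cells, had 0.631 and 1.58 against 1.45 and 1.15.

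The 9 genes of collagen breakdown were 6 proteases and the inhibitors Timp1, Timp2 and Timp3. Of these, 6 were lower and 3 higher (median log2 fold change -0.34), and 1 was called, lower, beside 2.73% of all genes tested. Timp1, at 0.489 and 0.897 in HFD and 2.37 and 0 in HFD and Exercise, was lower by its log2 fold change and higher by its group mean. Mmp13, a collagenase of bone and cartilage, had 4.11 and 6.01 scaled FPKM in HFD and 2.07 and 1.28 in HFD and Exercise, a log2 fold change of -1.55 with a standard error of 0.405. Mmp8 and Mmp9, which neutrophils store, were far more abundant, at 72.2 to 213 and 80.4 to 198, and both overlapped. Ctsk, the collagen-degrading protease of osteoclasts, had 1.41 and 3.52 against 1.53 and 2.45. Of 10 tested matrix proteins that bind collagen, out of 15, 4 were lower and 6 higher, and none was called. The small proteoglycans Dcn and Bgn, fibrillin Fbn1 and fibronectin Fn1 were higher in both exercise libraries, with log2 fold changes of 0.57, 0.53, 0.59 and 0.39.

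**Figure D5:**
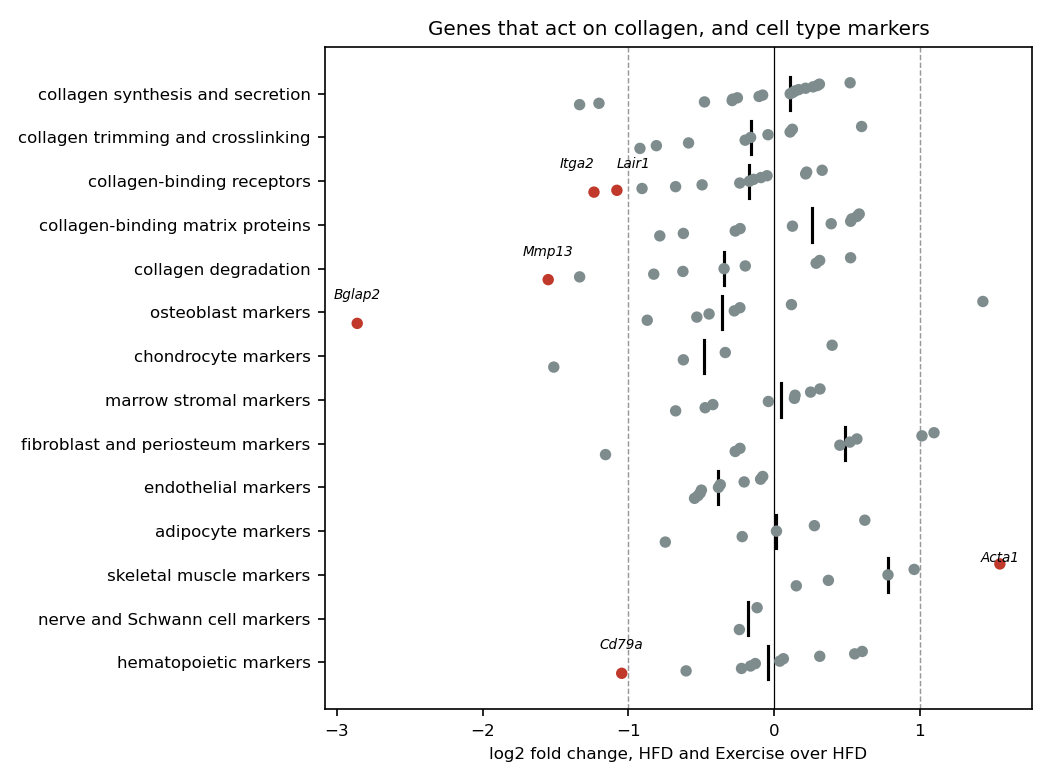
Log2 fold change of HFD and Exercise over HFD for tested genes that act on collagen and for cell type markers. Each point is a gene, the upright bar is the median of the list, named red points passed the thresholds, and dashed lines mark -1 and 1. Endothelial markers all lie left of 0, with a median of -0.38, and the 5 tested skeletal muscle markers all lie right of it, with a median of 0.78.

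Markers of the cells that make collagen were set beside the chains. Of 8 tested osteoblast markers, out of 10, 6 were lower and 2 higher, with a median log2 fold change of -0.36. The most abundant, Runx2 and Ibsp, had log2 fold changes of -0.23 and -0.27. The 2 higher genes were Ifitm5 and Alpl, with log2 fold changes of 1.43 and 0.12. Ifitm5 had 0.437 and 2.10 scaled FPKM in HFD and 3.67 and 2.19 in HFD and Exercise, with no overlap. Runx2 (6.35 and 5.93 against 5.05 and 5.37), Sp7, Phex and Bglap2 were lower in both exercise libraries. Separated genes were thus 4 lower and 1 higher, beside 18.7% and 14% of all genes tested. Bglap2, an osteocalcin gene with a near-identical neighbour in Bglap, was called (2.73% of all genes tested were called lower) and fell by 2.86 on the log2 scale, from 1.12 and 3.42 to 0 and 0.717 scaled FPKM. Bglap itself had 2.26 and 4.61 against 3.41 and 1.42, and reads may be divided between these genes. The summed level of the 10 osteoblast markers was 15.8 and 25.8 in HFD and 17.6 and 16.1 in HFD and Exercise, with overlap, and Mepe was listed at 0 in all 4 libraries. Col1a1 did not overlap between these groups, and the part of osteoblasts in its values was not tested.

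Marrow stromal markers, which include the chemokine Cxcl12 and the receptor Lepr, had 4 tested genes lower and 4 higher, and sums of 139 and 194 in HFD and 141 and 195 in HFD and Exercise. Fibroblast and periosteum markers had 3 lower and 5 higher genes and sums of 38.5 and 36.0 against 49.1 and 52.0, most of which was Pi16 (29.7 to 42.9). Adipocyte markers had 2 lower and 3 higher genes (3 lower and 2 higher without scaling) and sums of 70.5 and 74.0 against 118 and 93.4, most of which was Fabp4. Skeletal muscle markers had 5 higher genes of 5 tested and sums of 9.88 and 5.88 against 13.5 and 12.5. Of these, Acta1, the actin of muscle fibres, was called, with a log2 fold change of 1.55, beside 0.979% of all genes tested called higher after exercise. The sums of the fibroblast, adipocyte and muscle markers were higher in both exercise libraries, as were Col6a1 and Col6a2. Each of these sums overlapped between the groups without 1 of its genes, respectively Pi16, Fabp4 and Acta1. Of the adipocyte markers, Lep was listed at 0 in all 4 libraries, and Plin1 was above 0 only in HFD 1, at 0.0554. The part of these markers in the type VI values was not tested. Nerve and Schwann cell markers (2 of 6 tested, both lower) and hematopoietic markers (5 lower and 5 higher of 10, and 7 lower and 3 higher without scaling) had sums that overlapped. Cd79a, a B cell receptor component, was the called hematopoietic marker, with a log2 fold change of -1.04. In the lists without a call in limma, only Fabp4 had an unadjusted p under 0.05, with a log2 fold change of 0.62, and limma voom called only Fbn1. Of the genes called here, voom also called Itga2, Mmp13, Acta1 and Cd79a, but not Lair1 or Bglap2, and quantile normalization called each of these 6 but Itga2. With 1 library left out at a time, these 6 genes kept their sign, but Cd79a and Lair1 were called in 2 of the 4 fits and the others in 1. Their log2 fold changes then ran from -1.20 to -0.97 for Lair1, -1.44 to -1.04 for Itga2, -1.88 to -1.23 for Mmp13, -4.40 to -1.35 for Bglap2, -1.11 to -0.99 for Cd79a and 0.90 to 2.18 for Acta1. The losses were those without HFD 1 for each of the 6 but Acta1, without HFD 2 for each but Cd79a, without HFD and Exercise 1 for Acta1, Bglap2 and Cd79a, and without HFD and Exercise 2 for Acta1, Itga2 and Mmp13.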

How the data were processed

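The authors trimmed reads with fastp, removed rRNA reads, aligned to GRCm38 with HISAT2, filtered with SAMtools and quantified GENCODE transcripts with StringTie, which divides shared reads by an estimate, so that low values can be exact zeros. The library kit does not mark strand. The deposited tables give for each transcript the coverage, a signal not scaled for depth, and the FPKM scaled by the authors.

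FPKM was summed over the transcripts of a gene, divided by median-of-ratios factors (0.949 to 1.03), 0.1 was added, and log2 values were compared in limma 3.58.1 under R 4.3.3 for genes whose mean FPKM reached 0.1 (trended eBayes, 2 residual and 3.73 prior degrees of freedom). Fold changes of low genes are understated on this scale. The script was tested on simulated data, where large changes were given only to genes averaging 1 FPKM or more. Its power for scarcer genes or smaller changes was not tested. The authors' DESeq2 test needs counts and was not used. The labels name separate samples but not their animals or days, so p-values measure the spread between these samples, and their number, 2 per group, limits the precision.

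Given with values were called genes, the 3 most abundant of each class with their trimer partners, and separated members beyond a log2 fold change of 1. Of the lists, called genes and part of the abundant genes were named, and others for their role after their values were seen. Abundant genes left out include Colgalt1, Mia3 and Loxl3. The members, classes and hand-written lists were chosen with earlier results of these data known, and Comp, Matn1, Matn3, Dcn and Lum are in more than 1 list. Alternatives covered the minimum, the added value, scaling, voom, the trend, the replicate block, the leading transcript and leaving out each library. Python 3.11.15, pandas 2.3.3 and matplotlib 3.10.9 were used.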

Additional observations from a re-analysis of the deposited data

How the results depend on the processing

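The count of called collagen genes was 1 in the fit as reported and ran from 0 to 4 in the alternatives. It was 0 with 1 added to each value, with quantile normalization and with the leading transcript alone. In these settings 1.2%, 3.51% and 5.02% of all genes were called. It was 2 without scaling (Col1a1, Col2a1), beside 3.83% of all genes. It was 3 without the intensity trend (with Col16a1), beside 5.71%, and 4 with limma voom (with Col6a1, higher), beside 2.44%. Leaving out 1 library gave 1 to 4. Over all genes, these alternatives called 1.2% to 10.3%. The replicate block gave 1 call, Col9a3 in place of Col1a1. The replicate numbers are shared by both groups, and libraries of the same number deviated with a correlation of -0.106 over all genes tested. The correlation was -0.235 when only genes averaging 1 FPKM or more were kept. Whether libraries of the same number shared a day or a batch was not tested. The crossed pairing, added after seeing the data, gave 2 calls.

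The cartilage sum had a log2 ratio of 0.32 with leading transcripts, -1.54 without Col11a2 and -1.38 with Col2a1, Col11a1 and Col11a2 counted as fibrillar, against -0.35. The sum of the other chains had 0.77 with quantile normalization and 0.29 without Col6a1, against 0.53. The basement membrane sum ran from -0.27 to 0.67 with 1 library left out. The cause of these shifts was not tested.

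Of 25 single genes, 14 kept their sign in each setting, among them Col1a1, Col2a1, Col5a1, Col6a1 and Col6a2. The log2 fold change turned for Col10a1 with 0.01 added (-0.70) and voom (-1.54), for Col15a1 with quantile normalization (0.36) and voom (0.29), for Col4a1 without scaling (-0.049) and with the leading transcript (-0.012), for Col5a2 with 1 added (0.025) and quantile normalization (0.27) and for Col6a3 with the leading transcript (-0.93). With 1 library left out, 11 genes turned, with ranges of -0.84 to 0.94 for Col10a1, -0.49 to 0.35 for Col15a1, -1.54 to 0.46 for Col18a1, -0.34 to 0.19 for Col1a2, -0.88 to 0.073 for Col27a1, -0.18 to 1.06 for Col3a1, -0.47 to 0.51 for Col4a1, -0.73 to 1.23 for Col4a2, -1.06 to 0.83 for Col5a2, -0.61 to 0.47 for Col5a3 and -0.10 to 0.36 for Col6a3.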
